A study of Caenorhabditis elegans with 14 samples.

Results

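lin-4 and miR-237 are the C. elegans members of the lin-4 family of miRNAs, the family that includes miR-125 in mammals. They were taken from the small RNA tables as the mature miRNA rows with either name, which gave 4 mature arms of 450 mature miRNA rows and 23869 small RNA features of all kinds. The 5p arm is the main product of each hairpin. A further 6 rows hold their 5′-shifted reads (iso-miRs) and the remaining reads of each hairpin (pre-miRNA rows).

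lin-4 was the founding miRNA. It is switched on in the first larval stage and silences lin-14 and lin-28, which lets animals move from early to later larval cell fates. miR-237 carries the same seed, the stretch near the 5′ end that pairs with targets, but comes from a separate gene. Their long primary transcripts are expected to be cut in the nucleus by the Microprocessor. In worms, DRSH-1 (Drosha) makes the cut and PASH-1 (DGCR8 in mammals) binds the hairpin alongside it. The cut hairpin is then diced, and an Argonaute keeps 1 strand of the duplex as the guide.

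Small RNAs were sequenced from whole gravid hermaphrodites of the wild-type strain N2 and of pash-1(ram33[G179R]) mutants (strain TAM93, a line outcrossed to N2), in which a glycine in the WW domain of PASH-1 is an arginine. Animals were grown from synchronized first-stage larvae for 72 h at 20 °C (3 libraries per strain) or for 54 h at 25 °C (4 per strain), so temperature and growth time changed together. The allele is a point mutation from a chemical mutagenesis screen for loss of pri-miRNA processing. Whole gravid adults contain embryos, so embryonic small RNAs are part of every library. The study reports that mutants at the higher temperature had fewer progeny, that many were sterile and that some had developmental defects. It cautions that such defects limit what can be read from single miRNAs at that temperature. Whether the strains held equal numbers of embryos was not tested. The comparison asks how this mutation affects mature miRNA levels. In whole animals, fewer cells of a type and less RNA per cell cannot be told apart.

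Values are rpm, reads scaled to the size of the library. For tests between strains, rpm was also divided by a size factor for each library, because fewer reads in a few abundant miRNAs can raise the rpm of everything else. Such factors assume that the typical feature is unchanged, which was not tested. With them, 72.9% of 7070 features still passed the strain test at 25 °C, against 5.9% of 7034 at 20 °C. These factors were 0.771 to 0.936 in wild-type against 1.07 to 1.30 in mutants. Each library held an estimated 16400000 to 23400000 reads, so 1 read was worth 0.0427 to 0.0610 rpm. The 5p arms rested on an estimated 13918 to 47809 reads per library and miR-237-3p on 54 to 258. The embryonic miRNAs miR-35 to miR-41 (7 of 7 3p arms above 0 in every library) summed to 168081 to 187007 rpm in wild-type against 90015 to 102026 rpm in mutants at 20 °C, and to 191067 to 214582 rpm and 58151 to 69631 rpm at 25 °C. In rpm, miR-1, a muscle miRNA, overlapped between strains at both temperatures, as did miR-240, used here as an intestinal marker. With size factors, both had lower values in mutants. The log2 differences were -0.31 at 20 °C and -0.50 at 25 °C for miR-1-3p, and -0.43 and -0.52 for miR-240-3p. The neuronal miRNA miR-124 was at 7.66 rpm or less in every library. All of these markers are themselves miRNAs. Tissue or embryo content and an effect of the mutation on miRNA levels therefore cannot be told apart in them.

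The 2 genes lie in different settings. In the Ensembl annotation of WBcel235, the lin-4 hairpin spans 94 nt on the plus strand of chromosome II, from 5902254 to 5902347, inside an intron of the protein-coding gene F59G1.4 on the same strand. A non-coding RNA gene, F59G1.10, covers it on the opposite strand. The mir-237 hairpin spans 99 nt on the plus strand of chromosome X, from 8154084 to 8154182, between genes, and the nearest protein-coding gene, F22F1.2, is 3363 nt away. The mature arms of lin-4 are 21 nt (5p) and 22 nt (3p) with 18 nt between them. Those of miR-237 are 23 nt (5p) and 22 nt (3p) with 14 nt between them.

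At 20 °C, lin-4-5p did not change detectably between strains. miR-237-5p was slightly lower in mutants with size factors, a call that was lost in rpm as deposited and with some other scalings. At 25 °C, the pair parted. miR-237-5p fell about 3.03-fold (limma, adjusted p = 3.04e-19), while lin-4-5p did not pass the test. The ratio of miR-237-5p to lin-4-5p within a library, which no scaling can alter, fell 3.24-fold at 25 °C, from 1.25 ± 0.0465 (SD, n = 4) to 0.386 ± 0.0328 (SD, n = 4).

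**Figure D1:**
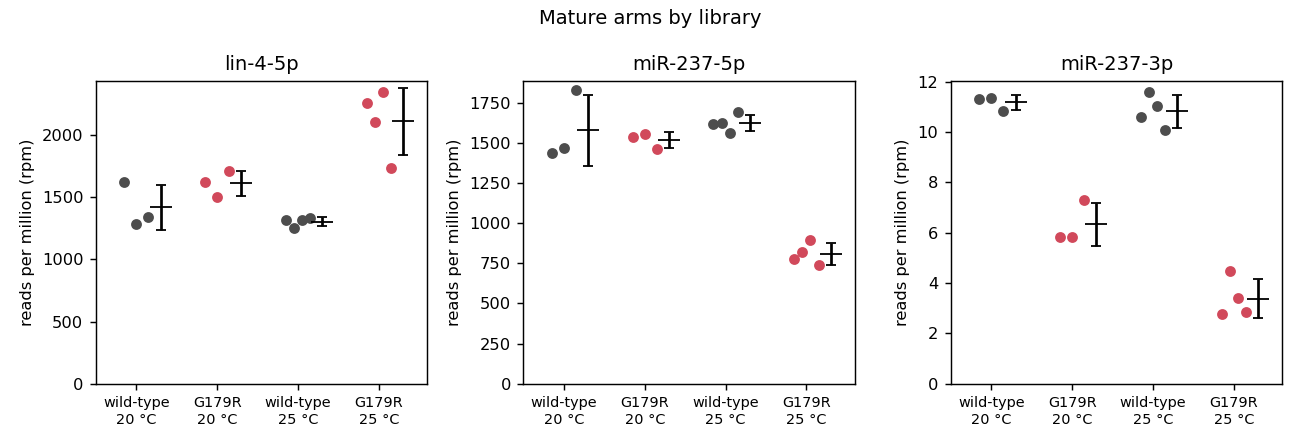
Level of lin-4-5p, miR-237-5p and miR-237-3p in rpm as deposited (vertical axes, from 0) in each library of the 4 groups. Points are libraries, and the bar with whiskers is the mean ± SD of the 3 or 4 libraries. In mutants at 25 °C, lin-4-5p sits at 1735 to 2343 rpm and miR-237-5p at 739.02 to 893 rpm.

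lin-4-5p was present at similar levels in both strains at 20 °C. The wild-type libraries had 1624, 1286 and 1340.34 rpm. The mutant libraries had 1621, 1503 and 1706 rpm. The groups overlapped, because the first wild-type library lay above 2 of the 3 mutant libraries. With size factors, the mutant level was -0.18 relative to wild-type on the log2 scale (SE 0.103, 95% interval -0.39 to 0.03, limma adjusted p = 0.384). Across all 7034 features tested at 20 °C, 5.9% passed this test (3.84% lower and 2.06% higher in mutants).

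At 25 °C, lin-4-5p stood at 1312, 1255, 1316 and 1333 rpm in the wild-type libraries. It stood at 2253, 2104, 2343 and 1735 rpm in the mutant libraries. In rpm, every mutant library was therefore above every wild-type library, and the fourth mutant library was the lowest of its group. With size factors the difference was 0.09 (SE 0.0746, 95% interval -0.06 to 0.25, limma adjusted p = 0.253) and did not pass. Of the 7070 features tested at 25 °C, 72.9% passed (39.3% lower and 33.6% higher in mutants). The miRNAs listed for late larvae and adults (let-7, miR-48 and miR-241, 5p arms) summed to 67988 to 69452 rpm in mutants and 36761 to 40639.8 rpm in wild-type at 25 °C. miR-48-5p made up this gap (mean 63772 against 33655 rpm), while let-7-5p averaged 4027 against 3978 rpm and miR-241-5p 988 against 1846 rpm. The neuronal miR-124 was at 5.49 to 7.66 against 2.27 to 3.62 rpm. The part of these cell types and stages in the level of lin-4-5p was not tested. Without the fourth mutant library the difference was 0.16 and passed (adjusted p = 0.0241).

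The call for lin-4-5p at 25 °C depended on what the libraries were scaled to. It was higher in mutants in rpm as deposited (0.68, limma adjusted p = 1.24e-10) and with size factors from the siRNAs bound by the Argonaute CSR-1 (0.97, adjusted p = 3.64e-09). Scaled to the piRNA total, it was lower (-0.27, adjusted p = 3.31e-03). The median of all features was then 0.54, 0.81 and -0.39 in that order, against -0.04 with the size factors used here. They also moved the split of lower and higher calls, from 2780 and 2373 to 942 and 3672 in rpm, 276 and 4119 with CSR-class siRNAs and 3484 and 1340 with piRNAs. At 20 °C the split went from 270 and 145 to 127 and 1598 in rpm, 118 and 90 with CSR-class siRNAs and 212 and 209 with piRNAs, and the median of all features from -0.01 to 0.35, 0.15 and 0.06. No direction for lin-4-5p on its own can be given independently of the scaling.

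**Figure D2:**
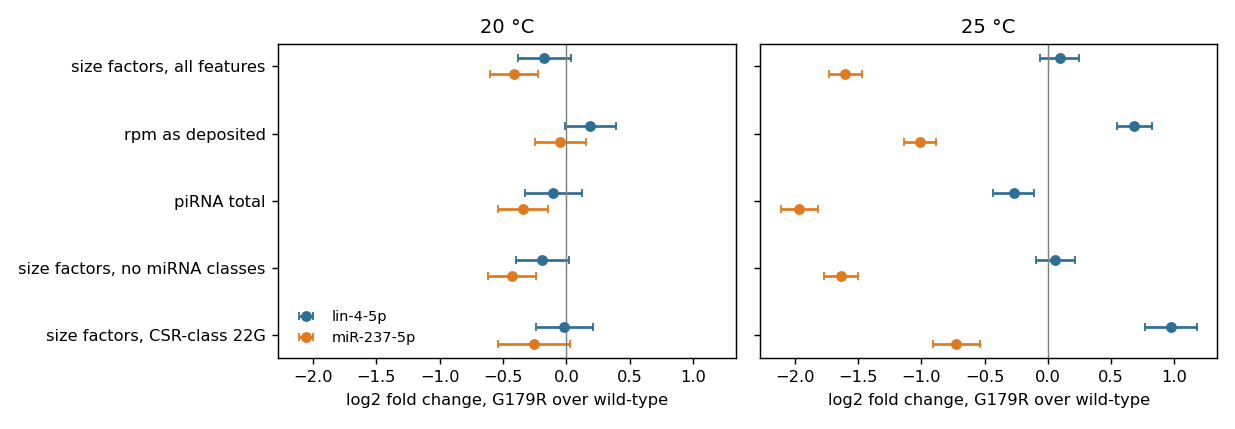
Log2 fold change of mutants over wild-type (horizontal axis) for lin-4-5p and miR-237-5p under 5 scalings (vertical axis) at 20 °C and 25 °C. Points are limma estimates and bars their 95% intervals. At 25 °C, miR-237-5p lies below 0 under all 5 scalings (-1.96 to -0.72), whereas lin-4-5p runs from -0.27 to 0.97.

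miR-237-5p was read at levels near those of lin-4-5p in wild-type animals. At 20 °C the wild-type libraries had 1435, 1470 and 1831 rpm. The mutant libraries had 1539, 1556 and 1460.18 rpm. The groups overlapped fully in rpm, with all 3 mutant libraries inside the wild-type range. With size factors, miR-237-5p was lower in mutants by 1.33-fold (log2 -0.41, SE 0.0925, 95% interval -0.60 to -0.23, limma adjusted p = 2.87e-03). That call was lost in rpm as deposited (-0.05, adjusted p = 0.742), with CSR-class size factors (-0.25, adjusted p = 0.353) and relative to lin-4-5p (-0.24, adjusted p = 0.562), and without the third mutant library at 20 °C (-0.38, adjusted p = 0.0562).

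At 25 °C the wild-type libraries had 1617, 1626, 1563 and 1690 rpm of miR-237-5p. The mutant libraries had 779, 821, 893 and 739.02 rpm. Every mutant library was far below every wild-type library, and the gap between the groups was wider than the range within either. With size factors the log2 difference was -1.60 (SE 0.0644, 95% interval -1.73 to -1.47, limma adjusted p = 3.04e-19). It stayed past the threshold under each of the 11 other settings, at -1.96 to -0.72, and with each library left out in turn, at -1.64 to -1.58.

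The fall of miR-237-5p was larger at 25 °C than at 20 °C. The 2 temperatures were normalized in separate tables, so only the strain differences were compared. Their difference was -1.19 on the log2 scale (SE 0.109, limma interaction, adjusted p = 1.46e-10). For lin-4-5p it was 0.27 (SE 0.133, 95% interval 0.00 to 0.54, adjusted p = 0.105). Of 6396 features tested for this difference, 38% passed, 22.5% with a lower and 15.5% with a higher value at 25 °C. The lin-4-5p value passed without the third wild-type library at 20 °C (0.35, adjusted p = 0.0397) and without the fourth mutant library at 25 °C (0.34, adjusted p = 0.0306).

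Set side by side in rpm, with no test across the tables, lin-4-5p was lowest in wild-type at 25 °C (1304 ± 33.9, SD, n = 4). It was followed by wild-type at 20 °C (1417 ± 181, n = 3), mutants at 20 °C (1610 ± 102, n = 3) and mutants at 25 °C (2109 ± 268, n = 4). Neighbours in this order overlapped, except that the mutants at 25 °C lay above those at 20 °C in every library. For miR-237-5p the order was mutants at 25 °C (808 ± 65.7, n = 4), mutants at 20 °C (1518 ± 50.9, n = 3), wild-type at 20 °C (1578 ± 219, n = 3) and wild-type at 25 °C (1624 ± 51.9, n = 4). Only the mutants at 25 °C were separate from their neighbour.

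The ratio of miR-237-5p to lin-4-5p is taken within each library, which removes depth and scaling. Each read is 1 whole small RNA, so no correction for length applies. Ligation can favour 1 sequence over another, so the ratio was read only between strains. At 20 °C it was 0.883, 1.14 and 1.37 in wild-type against 0.950, 1.04 and 0.856 in mutants. These groups overlapped (log2 difference -0.24, 90% interval -0.67 to 0.23, two-sided exact permutation p = 0.3, where 3 against 3 libraries cannot go below 0.1).

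At 25 °C the ratio was 1.23, 1.30, 1.19 and 1.27 in wild-type. In mutants it was 0.346, 0.390, 0.381 and 0.426. Wild-type animals thus had more miR-237-5p than lin-4-5p reads in every library and mutants fewer in every library, with no overlap. The log2 difference was -1.69 (97.1% interval -1.90 to -1.48, two-sided exact permutation p = 0.0286, the smallest that 4 against 4 libraries can give). Over the 4 ratio tests made (this ratio and that of the 2 miR-237 arms, at both temperatures) the adjusted value was 0.0571, which misses the threshold of 0.05. In a fit of all features scaled to lin-4-5p, miR-237-5p differed by -1.69 at 25 °C, and the difference between temperatures was -1.46. This fit rests on the same ratio in the same libraries. All features in it share the lin-4-5p value of each library, so its small p-values add no independent support and are not given here.

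**Figure D3:**
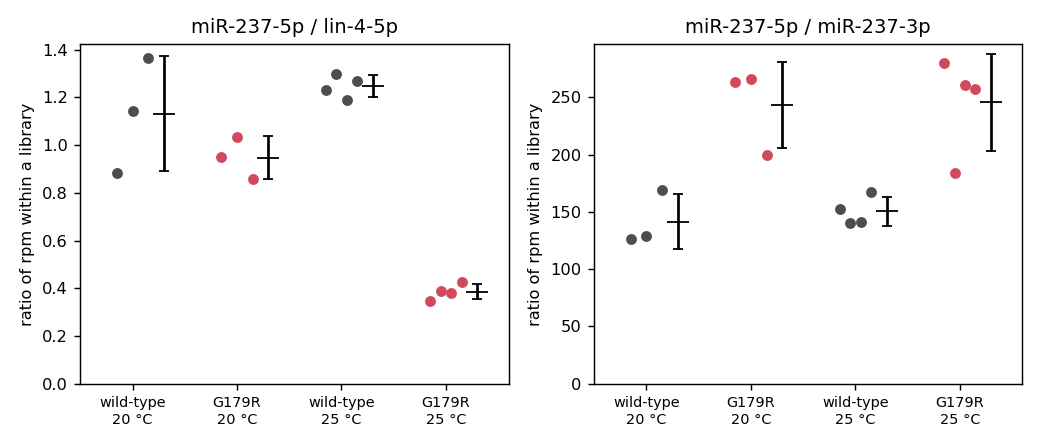
Ratio of miR-237-5p to lin-4-5p (left) and of miR-237-5p to miR-237-3p (right) in each library, as rpm over rpm on axes that start at 0. Points are libraries, and the bar with whiskers is the mean ± SD of the 3 or 4 libraries. At 25 °C the left ratio is 1.19 to 1.30 in wild-type against 0.346 to 0.426 in mutants.

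Both 5p arms carry the same seed, so their summed level was also computed, after the values of each arm had been seen. At 25 °C the sum was 2928 ± 67.3 rpm in wild-type (SD, n = 4) and 2917 ± 322 rpm in mutants (SD, n = 4), a difference of -11.0 rpm with a 97.1% interval of -548 to 357. At 20 °C the sum was 2995 ± 215 rpm in wild-type against 3128 ± 60.5 rpm in mutants (n = 3 each). In rpm the groups overlapped at both temperatures. Divided by size factors, the sum no longer overlapped and was lower in mutants, at 3595 ± 174 in wild-type against 2374 ± 228 in mutants at 25 °C (SD, n = 4 each, 1.51-fold) and 3399 ± 228 and 2760.05 ± 191 at 20 °C (SD, n = 3 each, 1.23-fold). The level of the pair together therefore depends on the scaling, and its make-up does not. lin-4-5p was 43.6 to 45.7% of the sum in wild-type against 70.1 to 74.3% in mutants at 25 °C, and 42.3 to 53.1% and 49.1 to 53.9% at 20 °C.

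**Figure D4:**
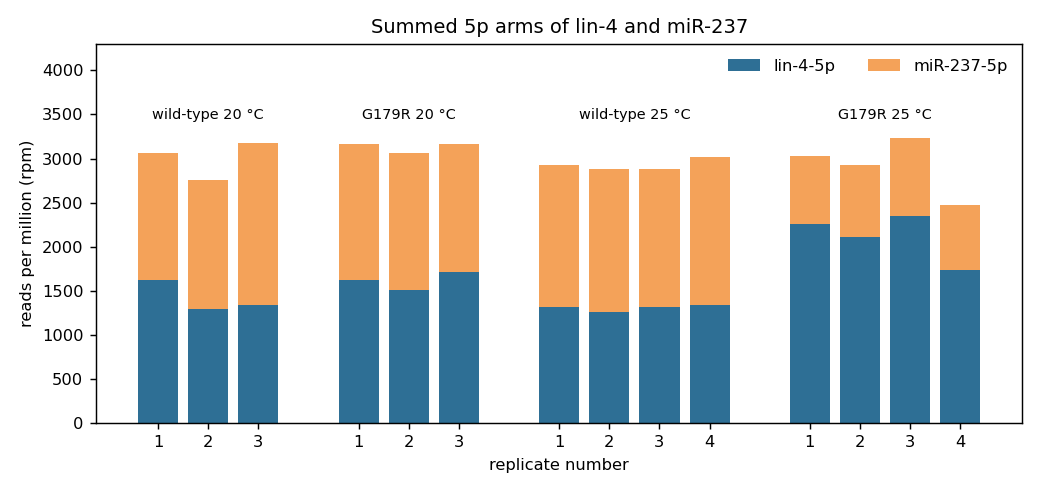
Stacked rpm of lin-4-5p (lower segment) and miR-237-5p (upper segment) in each library, with the replicate number on the horizontal axis and rpm as deposited on the vertical axis. Bar tops lie at 2474 to 3235 rpm in the mutants at 25 °C and 2879 to 3022 rpm in wild-type, with lin-4-5p forming 70.1 to 74.3% and 43.6 to 45.7% of them.

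The 3p arms are the passenger strands, which are mostly discarded. lin-4-3p was at 0 in 13 of 14 libraries and at 0.05 rpm, an estimated 1 read, in the second wild-type library at 25 °C. A count of 0 allows up to 3 reads, 0.128 to 0.183 rpm, in a library. lin-4-5p was therefore at least 8871-fold higher than its 3p arm in every library in which the latter was at 0. It did not pass the filter of a mean of 1 rpm and was not tested, so 3 of the 4 mature arms were.

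miR-237-3p was measurable and lower in mutants at both temperatures. At 20 °C it had 11.3, 11.4 and 10.8 rpm in wild-type against 5.85, 5.84 and 7.30 rpm in mutants. At 25 °C it had 10.6, 11.6, 11.1 and 10.1 rpm in wild-type against 2.78, 4.47, 3.42 and 2.87 rpm in mutants. The groups did not overlap at either temperature. It was 2.26-fold lower at 20 °C (log2 -1.18, SE 0.170, limma adjusted p = 3.41e-06) and 4.76-fold lower at 25 °C (log2 -2.25, SE 0.147, adjusted p = 6.48e-14). These calls held under all 11 other settings at each temperature. The difference between temperatures was -1.07 (SE 0.220, adjusted p = 3.15e-04), which was lost with CSR-class size factors (-0.37, adjusted p = 0.173).

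The balance of the miR-237 arms was set further towards the 5p arm in mutant libraries. The ratio of 5p to 3p was 127, 129 and 169 in wild-type against 263, 266 and 200.02 in mutants at 20 °C. At 25 °C it was 153, 140.4, 141 and 168 in wild-type against 280.4, 184, 261 and 257 in mutants. No mutant library reached down to the wild-type range. The log2 difference was 0.78 at 20 °C (1.72-fold, two-sided exact permutation p = 0.1, the smallest possible, adjusted over the 4 tests 0.133). At 25 °C it was 0.69 (1.62-fold, 97.1% interval 0.13 to 1.00, exact permutation p = 0.0286, adjusted 0.0571). With iso-miR reads added to each arm the 25 °C difference was 0.56 and the groups overlapped (exact permutation p = 0.0571).

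Iso-miR rows count reads that start 1 to 3 nt up- or downstream of the annotated 5′ end, where a shift changes the seed. They were a small part of both 5p arms. The share of lin-4-5p reads that were shifted was 0.747% ± 0.0570 in wild-type against 0.815% ± 0.0720 in mutants at 20 °C (SD, n = 3 each, two-sided exact permutation p = 0.4), and 0.802% ± 0.0636 and 0.978% ± 0.0952 at 25 °C (n = 4 each, exact permutation p = 0.0571). The share for miR-237-5p was 0.303% ± 0.0701 and 0.295% ± 0.0733 at 20 °C (n = 3 each, exact permutation p = 0.9), and 0.335% ± 0.0521 and 0.394% ± 0.0789 at 25 °C (n = 4 each, exact permutation p = 0.257). None of these 4 tests passed, with adjusted values of 0.229 to 0.9. The intervals of the differences at 25 °C ran from -0.0350 to 0.310 percentage points for lin-4-5p and from -0.0795 to 0.210 for miR-237-5p.

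The iso-miRs were also tested as rows of their own. At 25 °C the lin-4-5p iso-miR row had 9.45 to 11.8 rpm in wild-type against 18.6 to 22.4 rpm in mutants (log2 0.38 with size factors, limma adjusted p = 2.67e-03), a call that was lost with piRNA scaling (0.02) and relative to lin-4-5p (0.29). The miR-237-5p iso-miR row had 4.52 to 6.56 rpm in wild-type against 2.39 to 4.47 rpm in mutants (-1.34, adjusted p = 2.03e-07). Shifted reads were more common on the 3p arm of miR-237, at 21.5 to 25.6% of its reads in wild-type against 20.3 to 38.7% in mutants at 25 °C, and these shares overlapped. That iso-miR row fell by 1.75 on the log2 scale at 25 °C (adjusted p = 5.22e-07). At 20 °C it fell by 0.75 (adjusted p = 0.0488), a call that was lost in 7 of the 10 other settings tried and without any 1 of 3 libraries (the first wild-type, the first mutant and the third mutant library).

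The pre-miRNA rows hold other reads from the hairpins, in libraries cut to the size of mature small RNAs. mir-237 had 0.06, 0 and 0 rpm in wild-type against 0.23, 0.16 and 0.63 rpm in mutants at 20 °C, an estimated 1 read at most against 3 to 12. At 25 °C it had 0 to 0.18 rpm in wild-type against 0.11 to 0.42 rpm in mutants, and the groups overlapped. lin-4 had 0.28 rpm at most in any library. Both rows were under the filter and were not tested.

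Among miRNAs, both 5p arms ranked in the middle of the abundant range. lin-4-5p was 38th to 43rd of the 450 in wild-type libraries and 37th to 41st in mutant libraries. miR-237-5p was 37th to 41st in wild-type libraries, 40th to 42nd in mutants at 20 °C and 45th to 47th in mutants at 25 °C. Of the tested miRNAs, 52.8% of 233 were called lower and 10.7% higher in mutants at 20 °C (63.5% in all), and 71.6% of 232 lower and 18.1% higher at 25 °C (89.7% in all). The difference between temperatures passed for 60.4% of 227 miRNAs, lower at 25 °C for 48.5% and higher for 11.9%. The median log2 difference of miRNAs was -0.43 at 20 °C and -0.90 at 25 °C. With CSR-class size factors, 95 miRNAs were called lower and 97 higher at 25 °C, so this majority depended on the scaling there.

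Fold changes were ranked among miRNAs, an order that says nothing of direction, since lin-4-5p itself changed direction with the scaling. At 20 °C, 149 miRNAs had a lower and 83 a higher log2 fold change than lin-4-5p. At 25 °C, 185 were lower and 46 higher, and lin-4-5p was 1.00 above the miRNA median. miR-237-5p was in the middle at 20 °C (119 lower, 113 higher). At 25 °C it was 0.70 below the median, with 77 lower and 154 higher. miR-237-3p was in the lower part at both temperatures, with 59 and 41 miRNAs below it.

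**Figure D5:**
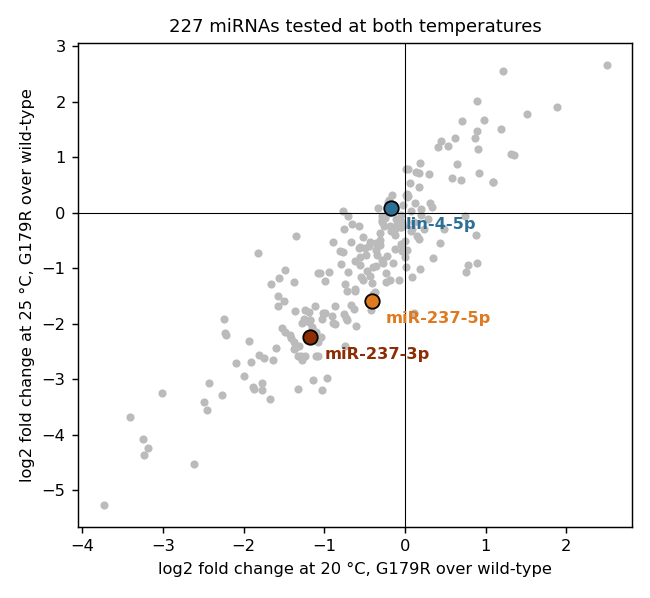
Log2 fold change of mutants over wild-type at 20 °C (horizontal axis) against 25 °C (vertical axis) for the 227 miRNAs tested at both temperatures, with lin-4-5p, miR-237-5p and miR-237-3p picked out. Each point is 1 mature arm, fitted with size factors. The 5p arms are close together along the horizontal axis (-0.18 and -0.41) and apart along the vertical one (0.09 and -1.60).

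The 82 other miRNAs with a mean of at least 100 rpm in both tables were ordered by how near their pair of fold changes lay to that of each 5p arm. Nearest to lin-4-5p were miR-234-3p (-0.21 at 20 °C, 0.19 at 25 °C, distance 0.104), miR-54-3p (-0.03, 0.14, distance 0.154) and miR-72-5p (-0.05, -0.04, distance 0.187). Nearest to miR-237-5p were miR-38-3p (-0.37, -1.62, distance 0.0513), miR-40-5p (-0.42, -1.75, distance 0.145) and miR-40-3p (-0.37, -1.42, distance 0.184). All 3 are arms of the mir-38 and mir-40 hairpins of the embryonic miR-35 family. The other listed 3p arms of that family lay below miR-237-5p at both temperatures. They were miR-35-3p (-1.15, -2.07), miR-36-3p (-0.67, -1.67), miR-37-3p (-1.32, -2.41), miR-39-3p (-1.77, -3.07) and miR-41-3p (-1.53, -2.07). The summed rpm of the family's 3p arms moved with miR-237-5p at 25 °C. At 20 °C that sum was also lower in every mutant library, while miR-237-5p in rpm lay inside the wild-type range. With size factors, miR-237-5p was lower in mutants at 20 °C too (-0.41), a call that was lost with some other scalings. The part of embryo content in the change of miR-237 was not tested. lin-4-5p came 67th of 82 by nearness to miR-237-5p, and miR-237-5p came 60th by nearness to lin-4-5p (distance 1.71 in both).

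let-7 acts after lin-4 in the same developmental timing pathway, promoting the change from larva to adult. All 7 listed members of the let-7 family were tested. At 20 °C, 3 were lower and 0 higher (miR-241-5p -1.57, miR-793 -0.71, miR-794-5p -2.46), with a median of -0.05 against -0.01 over all features, where 3.84% of all features and 52.8% of miRNAs were called lower. The miR-793 call was lost relative to lin-4-5p and with plain eBayes moderation. In limma with the deposited rpm the other 4 passed as higher at 20 °C. At 25 °C, 3 were lower (let-7-5p -0.57, miR-241-5p -1.50, miR-794-5p -3.56) and 3 higher (miR-48-5p 0.33, miR-84-5p 0.33, miR-795-5p 0.29), against 39.3% lower and 33.6% higher over all features and 89.7% of miRNAs called in either direction, so 6 of 7 is near the background. The 3 higher calls were lost with piRNA scaling, where miR-793 passed as lower. The let-7-5p call was lost in rpm as deposited, and let-7-5p passed as higher with CSR-class size factors. In both of these settings miR-793 passed as higher. The miR-795-5p call was also lost relative to lin-4-5p and with plain eBayes. miR-241-5p and miR-794-5p were lower under every scaling at both temperatures.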

How the data were processed

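Small RNAs of whole gravid adults were sequenced in 14 libraries. The authors aligned trimmed reads to the C. elegans genome (WormBase WS279), assigned them to features on the sense strand for miRNA rows with tinyRNA 1.5.0 and deposited rpm, which are reads scaled to the size of each library. Labels of small RNA class stood 1 line too low at 20 °C. They were realigned, and all 23869 then matched those at 25 °C.

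Size factors (median of ratios) were taken within a table, and log2(rpm / size factor + 0.1) was fitted with limma 3.58.1 (R 4.3.3, trend and robust options). Features averaging 1 rpm or more entered, fold changes are on that scale, and p-values were adjusted by Benjamini-Hochberg over all features fitted (threshold 0.05). The pseudocount understates changes of low features. For ratios and shares within libraries, exact permutation tests (two-sided) were used, and the intervals invert that test. They were run with pandas 2.3.3 and numpy 2.4.6 in Python 3.11.15, with matplotlib 3.10.9 for plots. Only 90.0 to 92.2% of low values were whole reads (within 0.006 rpm), so no count test was run. Gene positions are from the Ensembl annotation of WBcel235 and were not read from the deposited tables.

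Named were the rows of lin-4 and mir-237, the 3 miRNAs nearest to each 5p arm, the let-7 family, siRNA rows of heterochronic mRNAs and the embryonic miRNAs as a sum. Members, lists and tests were chosen with earlier results of these data known. Alternatives were the pseudocount, the filter, the scaling, the moderation, a replicate block and leaving out each library. The study describes the libraries as biological replicates, and the labels do not say whether they came from separate cultures, so p-values measure the spread between these libraries, which may be partly technical. Estimated read numbers cover counting error only.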

Additional observations from a re-analysis of the deposited data

Results flagged for a closer look

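The strain difference of miR-237-5p differed between the temperatures by -1.19 on the log2 scale (25 °C minus 20 °C) and that of miR-237-3p by -1.07, each by the limma interaction term. The same term was -0.89 for the miR-237-5p iso-miR row (adjusted p = 0.0173) and -1.01 for the miR-237-3p iso-miR row (adjusted p = 0.0275). All 4 rows were lower in mutants by more at 25 °C. Both iso-miR values missed the threshold in rpm as deposited, with CSR-class size factors and without some single libraries. The miR-237-3p iso-miR value also missed it with no filter (limma adjusted p = 0.0659) and with plain eBayes (adjusted p = 0.0689). Growth time changed with temperature, so the effects of these cannot be told apart.

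lin-4-3p was at 0.05 rpm in wild-type 25 °C replicate 2 and at 0 in the other 3 wild-type libraries at 25 °C, which set that library apart. It rests on an estimated 1 read. Of 31 groups of 4 libraries examined in this way, 1 had such a library. With the other 3 libraries at 0, any read at all sets a library apart. A chance rate for continuous values therefore does not apply to this row.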

How the results depend on the processing

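lin-4-5p had no direction that held across scalings. At 20 °C it was 0.19 in rpm as deposited. At 25 °C it was 0.68 in rpm, 0.97 with CSR-class size factors and -0.27 with piRNA scaling, and for the difference between temperatures 0.49, 0.99 and -0.17. Its iso-miR row at 20 °C turned from -0.05 to 0.31 in rpm, 0.021 with piRNA scaling, 0.11 with CSR-class size factors, 0.12 relative to lin-4-5p and 0.10 without wild-type replicate 1, and its difference between temperatures to -0.0047 with piRNA scaling. miR-237-5p at 20 °C lost its call in rpm (-0.048), with CSR-class size factors (-0.25), relative to lin-4-5p (-0.24) and with plain eBayes (-0.41, adjusted p = 0.237). The cause was not tested.

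With 1 library left out, lin-4-5p ranged from -0.26 to -0.04 at 20 °C, 0.032 to 0.16 at 25 °C and 0.14 to 0.35 for their difference, and miR-237-5p from -0.47 to -0.35, -1.64 to -1.58 and -1.25 to -1.13. The log2 ratio of miR-237-5p to lin-4-5p ranged from -0.40 to -0.09 at 20 °C and -1.74 to -1.64 at 25 °C, and that of miR-237-5p to miR-237-3p from 0.71 to 0.92 and 0.62 to 0.83. The latter missed 0.05 at 25 °C without any 1 wild-type library, where the largest exact permutation p was 0.0571, and with iso-miRs (0.56). The shifted share at 25 °C ranged from 0.150 to 0.217 percentage points higher in mutants for lin-4-5p (past 0.05 only without mutant replicate 1), and at 20 °C from -0.0409 to 0.0315 for miR-237-5p.

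Replicate numbers did not pair the libraries (correlations of same-numbered deviations -0.148 to 0.102). A replicate block left the limma calls of the 3 tested mature arms as they were (lin-4-5p difference between temperatures 0.27, adjusted p = 0.0529). The blocked ratio of miR-237-5p to lin-4-5p at 25 °C was -1.69 with an exact permutation p of 0.125, the smallest that 4 pairs can give.

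The number of features called at 20 °C was 415, and 1725 in rpm, 208 with CSR-class size factors, 155 relative to lin-4-5p, 172 with plain eBayes and 860 without wild-type replicate 3. With a minimum of 5 rpm it went from 5153 to 2130 at 25 °C and from 2429 to 1451 for the difference, where fewer features were tested. Low reads limit the 3p arm, iso-miR and pre-miRNA values.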

Other observations

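Rows of small interfering RNAs (22G siRNAs, made against mRNAs and bound by worm Argonautes) were looked up for 9 mRNAs of the developmental timing pathway. They do not measure the mRNAs themselves. Rows for 4 were found, lin-28, lin-41 and lin-66 in the CSR class and lin-42 in the WAGO class, and 2 passed the filter. lin-28, a direct lin-4 target, had 0.24 rpm at most. lin-41, an RNA-binding protein gene silenced by let-7, had 5.47 to 6.76 rpm in wild-type against 4.04 to 5.58 rpm in mutants at 25 °C, where the groups overlapped (log2 -0.89 with size factors, limma adjusted p = 8.00e-06). lin-66 had 0.91 to 1.47 and 0.85 to 1.42 rpm at 25 °C (-0.65, adjusted p = 0.0397). The 2 of 2 called at 25 °C stand beside 72.9% of all features called there, and 0 of 2 passed at 20 °C beside 5.9% (lin-41 -0.46, adjusted p = 0.213, with an unadjusted p of 0.0297; lin-66 -0.19, adjusted p = 0.817). Neither passed at 25 °C in rpm as deposited or with CSR-class size factors, and lin-66 did not pass with no filter on low values.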
